A study of Mus musculus with 18 samples.

Results

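H2-K1, H2-D1, B2m, Tap1, Tap2, Psmb8, Psmb9 and Nlrc5 were chosen by name, as genes of major histocompatibility complex (MHC) class I and of antigen processing, and were followed in every cluster code of both sorted compartments of the mouse bone marrow (BM). They are 8 of the 20275 genes in the deposited matrix, and all 8 were measured. Class I molecules display peptides from inside the cell to CD8+ T cells, and the absence of class I can release natural killer cells to attack. Proteasomes cut proteins into peptides, a transporter carries these into the endoplasmic reticulum, and there they are loaded onto a heavy chain paired with beta-2 microglobulin. Most nucleated cells carry class I, at levels that differ widely between cell types and that interferons raise.

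The cells came from unmanipulated mice of the strain given as C57B6/J, at embryonic day 16.5 (E16.5), E18.5, the day of birth (P0) and adulthood, the age of the adults not being stated in the labels. At each stage, hematopoietic progenitors (HPs) were sorted as Lineage-Kit+ cells and stroma as CD45-Ter119- cells, fetal and newborn BM coming from the whole skeleton without the head and adult BM from selected bones, so that stage and bone source cannot be told apart. Every library pooled mice of both sexes, with 5 libraries of HPs, 2 of them from E16.5, and 4 of stroma, so that the remaining stages have 1 library in each compartment. The labels do not say that both E16.5 HP libraries came from separate pools, so the spread between them may be technical. The 9 libraries held 56201 cells, 20982 HPs and 35219 stromal cells, with 13974733 to 194892476 unique molecular identifiers (UMIs) a library and a median of 6747 to 23291.5 UMIs per cell. Levels are given as CPM (the UMIs of a gene per 1000000 UMIs) after summing cells, and a range in parentheses after a level is its exact Poisson 95% interval, for counting error alone. In a sum over cells, fewer cells of a type and less RNA per cell cannot be told apart. Since the counts were not set per transcript length, levels of different genes are not compared with each other, apart from the mean levels of marker lists.

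Some libraries stood apart before any gene was compared. The first E16.5 HP library had 560 cells, of which 334 carried a barcode also present in another library. It shared 330 barcodes with the adult HP library and 153 with the P0 HP library. The adult HP library also shared 375 barcodes with the E18.5 HP library and 225 with the P0 HP library. In the adult HP library, 649 cells had a barcode that another library held with at least 5 times the UMIs, as did 157 cells at P0 and 61 cells at E18.5. Of these cells, 333 of the adult ones were in the code MyP4, 185 in Mast4i and 78 in Mast4ii, 152 of those at P0 were in Mast4, and those at E18.5 were mostly in Mast/Bas (24 cells) and the undefined codes UD2i and UD2ii (21 and 13 cells). Leaving them out changed no edgeR call of the 8 genes between compartments or stages. The leukocyte gene Ptprc, which encodes CD45, lay between 0.00890 and 0.0564 CPM in the 4 stromal libraries and between 79.3 and 163 CPM in the HP libraries. The second E16.5 HP library was rich in T cell codes, with a summed level of 5 T cell markers of 3460.4 CPM, against 11.2 to 88.6 CPM in the other HP libraries.

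Of the 8 genes, 6 lie on chromosome 17 of the mouse build GRCm38.p6 in RefSeq, in the order H2-K1 (chr17:33996012-34000619), Psmb9 (chr17:34182030-34187330), Tap1 (chr17:34187556-34197225), Psmb8 (chr17:34198195-34201454), Tap2 (chr17:34204479-34216321) and H2-D1 (chr17:35263094-35267497). B2m lies at chr2:122147687-122153082 and Nlrc5 at chr8:94434335-94527272. RefSeq gave a window of 250 bases before the start of transcription for 6 of the 8 genes. It is shown in part because class I genes are known to be switched on together through short promoter elements. Capitals mark the matches to 5 motifs searched on both strands, namely the interferon-stimulated response element (ISRE, read as GAAA, any 2 bases and GAAA), the interferon-gamma activated site (GAS, TTCNNNGAA), the kappa B site (GGG, any 2 bases, TT, any base and CC), CCAAT and TGACG, the last being the core of cyclic AMP response elements. The B2m window held all of these but the GAS, and the 160 bases before its start (chr2:122147527-122147686, plus strand) carry, in order, the ISRE, the kappa B site in reverse, TGACG and CCAAT in reverse:
B2m: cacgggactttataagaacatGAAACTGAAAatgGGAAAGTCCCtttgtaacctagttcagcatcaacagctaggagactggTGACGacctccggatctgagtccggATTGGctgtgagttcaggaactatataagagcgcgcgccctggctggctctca

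The heavy chain genes share the stretch around the kappa B site, identical at 29 of 30 bases (chr17:34000439-34000468 on the minus strand and chr17:35262913-35262942 on the plus strand). The kappa B match begins 111 bases before the start of H2-K1 and 171 bases before that of H2-D1. RefSeq also lists H2-K1 transcripts that begin further upstream.
H2-K1: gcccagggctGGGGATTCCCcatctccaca
H2-D1: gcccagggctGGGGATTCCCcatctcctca

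Tap1 and Psmb9 are read in opposite directions from starts separated by 225 bases, so a single TGACG between them is seen from either gene (chr17:34187458-34187487 on the plus strand for Tap1, chr17:34187457-34187486 on the minus strand for Psmb9). Psmb8 held a GAS (chr17:34198088-34198117, plus strand).
Tap1: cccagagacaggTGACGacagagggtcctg
Psmb9: aggaccctctgtCGTCAcctgtctctgggc
Psmb8: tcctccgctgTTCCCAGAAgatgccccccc

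TGACG and CCAAT each occurred in 5 of the 6 windows, the Tap1 and Psmb9 windows sharing the same TGACG and the same CCAAT, the kappa B site in 3, and the ISRE and the GAS in 1 each. Of 32851 windows of the same length, 17.8% held TGACG, 33.8% CCAAT, 4.11% the kappa B site, 7.02% the GAS and 2.98% the ISRE. A match is a match of letters only, and binding was not measured here.

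The first question was whether HPs and stroma differ in these genes. All 8 genes were lower in stroma, and the gap was widest for the inducible proteasome subunits and narrowest for B2m and Nlrc5. In the perinatal libraries, every HP library lay above every stromal library for all 8 genes, though only narrowly for Nlrc5. How many of all genes separate the libraries in this way, at the perinatal stages or over all 9 libraries, was not counted. In adults, H2-D1 was higher in stroma than in HPs. For the other genes except Nlrc5, the gap was narrower in adults than at every perinatal stage. For these genes a fold fitted over all stages is therefore larger than the adult one.

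H2-K1, a classical heavy chain, was at 230.3 and 198 CPM in both E16.5 HP libraries and at 184, 197 and 347 CPM in those of E18.5, P0 and adults, and in stroma at 6.61, 16.7, 13.7 and 284 CPM in the same order of stages. The adult stromal library thus entered the range of the HP libraries, while the 3 perinatal stromal libraries stayed far below it. In the fit over all stages, H2-K1 was 9.65-fold lower in stroma (log2 -3.27 ± 0.76 SE, edgeR quasi-likelihood test, adjusted p = 0.00944), a value that joins the wide perinatal gaps and the small adult one. H2-D1, the second classical heavy chain, was at 419.7, 318, 262, 244 and 375 CPM in the HP libraries and at 9.92, 21.1, 34.8 and 541 CPM in stroma. Its adult stromal level was above every HP library, so the fitted 7.53-fold lower level in stroma (log2 -2.91 ± 0.93 SE, edgeR adjusted p = 0.0316) describes the perinatal stages and not the adult. The call for H2-D1 was also the least stable of the 8, since it was held under 14 of 20 alternatives. It was lost without the second E16.5 HP library or without any 1 of the E18.5 and P0 HP and the 3 perinatal stromal libraries, at an edgeR adjusted p of up to 0.118.

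B2m, the light chain that pairs with class I heavy chains, was at 502, 399, 508, 459.8 and 519 CPM in HPs and at 96.1, 117, 164 and 309.7 CPM in stroma. B2m was lower in stroma (log2 -1.63 ± 0.27 SE, edgeR adjusted p = 0.00227). The compartments did not overlap, though the share of all genes without overlap was not counted. The HP values of B2m moved little with stage, the highest being the adult one.

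The transporter subunits Tap1 and Tap2 followed the same order. Tap1 was at 22.8, 27.2, 30.7, 36.6 and 42.0 CPM in HPs and at 1.52, 2.50, 3.84 and 11.2 CPM in stroma, 9.20-fold lower (log2 -3.20 ± 0.35 SE, edgeR adjusted p = 0.000422). Tap2 was at 29.3, 102, 42.0, 47.4 and 53.0 CPM in HPs and at 0.889, 1.68, 3.83 and 20.6 CPM in stroma, 15.8-fold lower (log2 -3.98 ± 0.90 SE, edgeR adjusted p = 0.00851). Neither gene overlapped between compartments, and here too the share of all genes without overlap was not counted. The high Tap2 value belonged to the second E16.5 HP library, the one rich in T cell codes.

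Psmb8 and Psmb9 encode subunits of the immunoproteasome, the form of the proteasome that favours peptides suited to class I. Psmb8 was at 167, 632, 264, 311 and 335 CPM in HPs and at 0.539, 1.15, 2.44 and 21.7 CPM in stroma, 142-fold lower (log2 -7.15 ± 1.13 SE, edgeR adjusted p = 0.00194). Psmb9 was at 42.1, 134, 88.2, 93.4 and 153 CPM in HPs and at 0.351, 0.560, 0.852 and 8.85 CPM in stroma, 96.2-fold lower (log2 -6.59 ± 0.82 SE, edgeR adjusted p = 0.000698). Even the adult stromal library stayed below the lowest HP library for both, again without a count over all genes. Over 20 alternatives the log2 difference ran from -8.05 to -5.44 for Psmb8 and from -7.27 to -5.55 for Psmb9. Nlrc5, the transactivator of class I genes, was scarce, at 0.572, 0.376, 1.77, 0.871 and 5.02 CPM in HPs and 0.214, 0.311, 0.257 and 1.32 CPM in stroma, from 8 to 297 UMIs a library. Adult stroma lay above 3 of the 5 HP libraries. Nlrc5 was 3.31-fold lower in stroma (log2 -1.73 ± 0.39 SE, edgeR adjusted p = 0.00855), a call that was lost without the E18.5 HP library (adjusted p = 0.0568) and narrowly without the E18.5 stromal library.

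**Figure D1:**
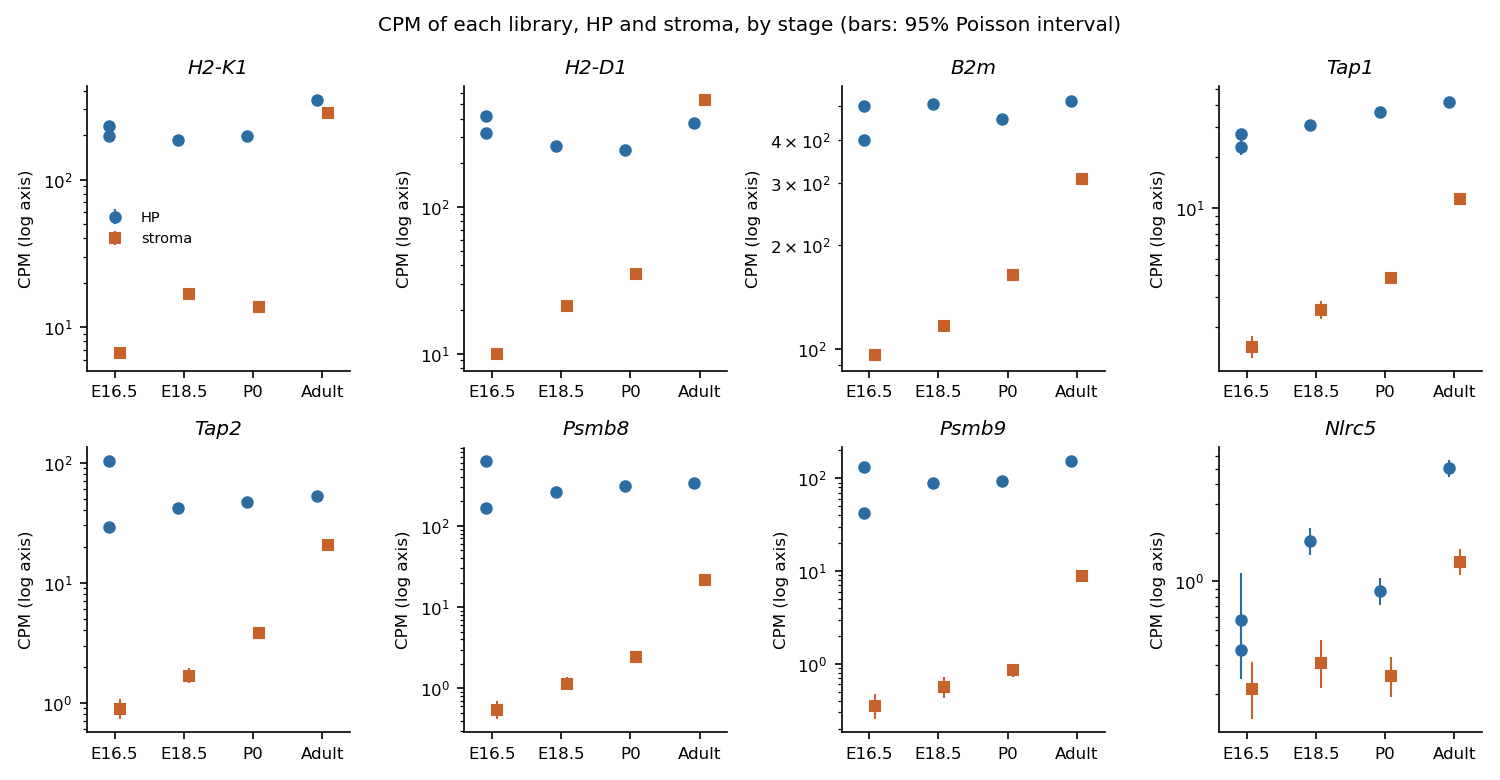
Level of each of the 8 genes in every library in CPM (log axis) against stage, with HP libraries as circles, stromal libraries as squares and bars for the Poisson 95% interval. Perinatal stromal libraries lie below all HP libraries in each panel, and the adult stromal library reaches the HP range for H2-K1 (284 CPM) and for Nlrc5 (1.32 CPM) and passes it for H2-D1 (541 CPM).

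These 8 calls have to be read against a broad difference between compartments, since 25.8% of 18407 tested genes were lower in stroma and 32% higher. In the rest of the pathway, 17 of 39 tested genes were lower in stroma and 3 were higher. The peptide editing protein Tapbpl, the trimming enzyme Erap1, the third inducible proteasome subunit Psmb10 (log2 -2.75 ± 0.35 SE), both subunits of the PA28 activator (Psme1 and Psme2) and the nonclassical heavy chain H2-T23 (log2 -4.28 ± 0.77 SE) were among the lower genes. The transcription factor Irf8 (log2 -4.17 ± 0.40 SE) was lower too. The 3 higher genes were H2-Q4, Mr1, which presents vitamin B metabolites, and the transcription factor Irf1. The median log2 difference was -3.24 over the 8 genes, -0.47 over the other pathway genes and 0.05 over all tested genes.

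The next question was how the genes change between perinatal and adult BM. In stroma, H2-K1 and H2-D1 were higher in the adult, by more than an order of magnitude over every perinatal library, while none of the 8 genes was called in HPs. H2-K1 in adult stroma was 17.0-fold above the highest perinatal stromal library and H2-D1 15.5-fold. In a fit with a separate adult change for each compartment, the log2 change in stroma was 4.45 ± 0.45 (SE) for H2-K1 (edgeR adjusted p = 0.0194) and 4.55 ± 0.62 for H2-D1 (edgeR adjusted p = 0.0347). These were 2 of 8 genes called, at a background of 1.22% of 19323 genes called higher. With 1 adult stromal library, the spread in this fit came from the 7 perinatal libraries, and the adult library was assumed to vary like them.

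The other 6 genes were also higher in adult stroma than in all 3 perinatal stromal libraries, without passing the threshold. The share of all genes that lie above those 3 libraries was not counted. Adult stroma was 10.4-fold above the highest perinatal stromal library for Psmb9 (log2 3.83 ± 0.65 SE, edgeR adjusted p = 0.0558), 8.87-fold for Psmb8 (3.96 ± 0.88 SE, adjusted p = 0.0918) and 5.38-fold for Tap2 (3.25 ± 0.86 SE, adjusted p = 0.122). The ratio was 4.23 for Nlrc5, 2.92 for Tap1 (adjusted p = 0.0504) and 1.89 for B2m (log2 1.20 ± 0.32 SE, edgeR adjusted p = 0.125). B2m, which was already at 96.1 to 164 CPM before adulthood, thus showed the smallest ratio of the 8. Without the E18.5 stromal library edgeR called no gene at all, and the adjusted p became 0.123 for H2-K1 and 0.212 for H2-D1. The call for both was also lost without the P0 stromal library, and that for H2-D1 without the second E16.5 or the E18.5 HP library (adjusted p of up to 0.0595 in these fits), and both were lost with every code weighted equally. Over all 18 alternatives the log2 change was at least 3.48 for H2-K1 and 3.97 for H2-D1. DESeq2 called all 8 genes in stroma, among 7.17% of genes that it called higher there.

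In HPs, the adult level of H2-K1 was 1.51-fold above the highest perinatal HP library (log2 0.88 ± 0.46 SE, edgeR adjusted p = 0.486), and H2-D1 in the adult lay inside the perinatal range (log2 0.39 ± 0.65 SE, adjusted p = 0.834). Nlrc5 was at 5.02 CPM in adult HPs against 0.376 to 1.77 CPM before (log2 2.70 ± 0.50 SE, edgeR adjusted p = 0.16). None of the 8 genes was called, at a background of 0.0362% of 19323 genes called in either direction (7 genes, against 2403 at an unadjusted p under 0.05), and DESeq2 called 1, among 2.86% of genes called higher. The test of the difference between the adult changes of the compartments called 0 of 19323 genes with edgeR (0%, with 3110 at an unadjusted p under 0.05). There, H2-K1 had a log2 difference of 3.57 ± 0.73 (SE, edgeR adjusted p = 0.198) and H2-D1 of 4.16 ± 1.03 (adjusted p = 0.21), while DESeq2 called both, among 5.44% of genes called higher. This edgeR test recovered 53% of simulated 16-fold and 2% of simulated 4-fold differences, so a change larger in stroma than in HPs was not shown by it at this number of libraries.

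**Figure D2:**
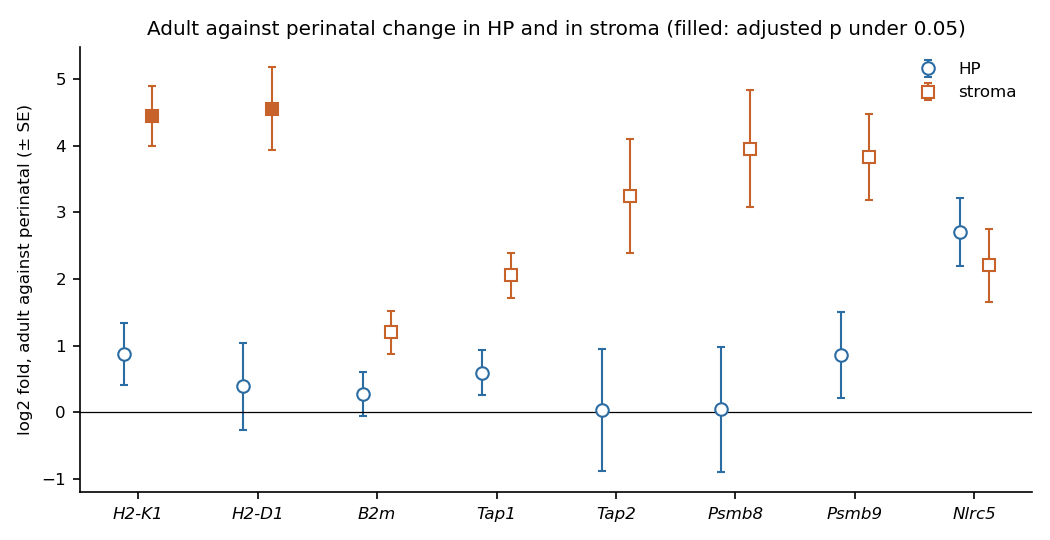
Log2 fold change between adult and perinatal libraries (± SE) for the 8 genes, with circles for HPs, squares for stroma and filled symbols for an edgeR adjusted p under 0.05. H2-K1 (4.45) and H2-D1 (4.55) in stroma are the filled symbols, and the HP values lie between 0.04 and 2.70.

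With 1 shared adult change for both compartments, edgeR called 35 of 18407 genes (0.19% in either direction) and none of the 8, at log2 changes of 0.78 to 3.19, against 5 called by DESeq2, which called 3.41% of genes higher. The nonclassical heavy chains H2-Q4, H2-Q6 and H2-Q7 were called there, and were the only ones of the 39 other pathway genes. Without the E18.5 stromal library, this fit called no gene. H2-Q7 was at 1.14 to 1.90 CPM in perinatal HPs, 43.4 CPM in adult HPs, 1.93 to 3.77 CPM in perinatal stroma and 21.9 CPM in adult stroma (log2 4.13 ± 0.43 SE, edgeR adjusted p = 0.0284). H2-Q6 and H2-Q7 are near-identical genes, so the assignment of reads to each is uncertain. In stroma alone, H2-T23 (log2 3.89 ± 0.52 SE) and Tapbp, the tapasin that bridges heavy chain and transporter (log2 2.43 ± 0.32 SE), were called beside H2-Q4, H2-Q6 and H2-Q7. Tapbp rose from 11.2, 18.8 and 22.2 CPM to 99.7 CPM in stroma. None of the 17 regulators was called in stroma, HPs or both together.

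Between E16.5 and P0, edgeR called 0 of 18407 genes (0%, with 721 at an unadjusted p under 0.05, and 68 by DESeq2) and none of the 8. In stroma, each of the 8 genes was higher at P0 than at E16.5. The ratio was 4.53 for Psmb8, 4.31 for Tap2, 3.51 for H2-D1, 2.07 for H2-K1 and 1.70 for B2m. For Nlrc5 the levels were close, from 25 of 116922277 UMIs at E16.5 and 50 of 194892476 UMIs at P0. H2-K1 and Nlrc5 were lower at P0 than at E18.5. These single libraries were not tested by themselves, and the share of all genes higher at P0 was not counted. In HPs, H2-D1 was at 419.7 and 318 CPM at E16.5 and at 244 CPM at P0.

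Other markers moved with the adult stromal library. The summed level of 6 endothelial markers was 39.3, 52.9 and 69.3 CPM in perinatal stroma and 299.6 CPM in the adult, with all 6 detected in each library. The 10 leukocyte markers summed to 3.30, 3.71 and 7.78 CPM and 20.5 CPM, 7 monocyte or macrophage markers to 1.54, 2.20 and 3.77 CPM and 21.1 CPM, and 5 erythroid markers to 4.47, 1.31 and 2.03 CPM and 47.2 CPM. Ptprc itself was at 0.0327 CPM in adult stroma, inside the perinatal range. With the endothelial codes and the CARs code left out, the log2 change in stroma was 3.48 ± 0.44 (SE) for H2-K1 and 4.15 ± 0.60 for H2-D1. With these codes it was 4.45 and 4.55. The parts of cell make-up and of blood cell RNA in these values were not tested.

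The clusters had been made by the authors from the same counts, so levels by cluster code are descriptions. Among codes with at least 50 cells in a library, there were 138 combinations of library and code, 73 of HPs and 65 of stroma. In adult stroma the code CARs, the CXCL12-abundant reticular cells that feed blood stem cells and lead the CAR markers here, stood above all others for H2-K1, H2-D1 and B2m. Its 359 cells had H2-K1 at 3468 CPM (3401 to 3535), H2-D1 at 4836 CPM (4757 to 4915) and B2m at 1926 CPM (1877 to 1976). They made up 5.73% of adult stromal cells and 3.27% of the UMIs, but held 39.8% of the H2-K1, 29.2% of the H2-D1, 20.3% of the B2m and 30.9% of the Psmb8 UMIs. Nlrc5 was highest there among the stromal codes, at 17.7 CPM (13.2 to 23.1), from 53 UMIs. No such code was given to the perinatal stages, so CARs have no perinatal counterpart for comparison.

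The adult endothelial codes came next for the heavy chains and B2m, and AECs stood above CARs for Tap2, Psmb8 and Psmb9. AECs had H2-K1 at 1114 CPM (1072 to 1157) and Psmb8 at 227 CPM (209 to 247), and SECs had 899 CPM (857 to 944) and 122 CPM (107 to 139). Both codes were led by the endothelial markers, and their 594 cells held 38.9% of the Psmb8 and 38.4% of the Psmb9 UMIs of adult stroma. Fibroblast-rich F codes had H2-K1 at 90.2 to 252 CPM in the adult, and the chondrocyte-rich C codes at 102 to 144 CPM. H2-D1 parted these 2 groups, at 299.5 to 922 CPM in F codes and 59.8 to 117 CPM in C codes. The adult Osteo code, led by osteolineage markers, had H2-K1 at 145 CPM and H2-D1 at 398 CPM.

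Endothelial cells (ECs) were the highest of the stromal codes in each perinatal library for H2-D1, B2m and Psmb8. At E16.5 they had H2-D1 at 141 CPM, against a median of 7.44 CPM over the 16 codes of that library, and at P0 437 CPM against a median of 43.8 CPM over 19 codes. Psmb8 was at 24.1, 68.0 and 77.8 CPM in ECs at E16.5, E18.5 and P0, against medians of 0.0776, 0.121 and 1.25 CPM. H2-K1 was highest in ECs at E16.5 and E18.5, at 17.2 and 97.8 CPM, and in the undefined code UD3 at P0, at 149 CPM. H2-K1 was lowest in P1i at E16.5, at 0.755 CPM, and in P1 at E18.5, at 3.01 CPM, and the undefined code UD2 at P0 held none of its UMIs.

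**Figure D3:**
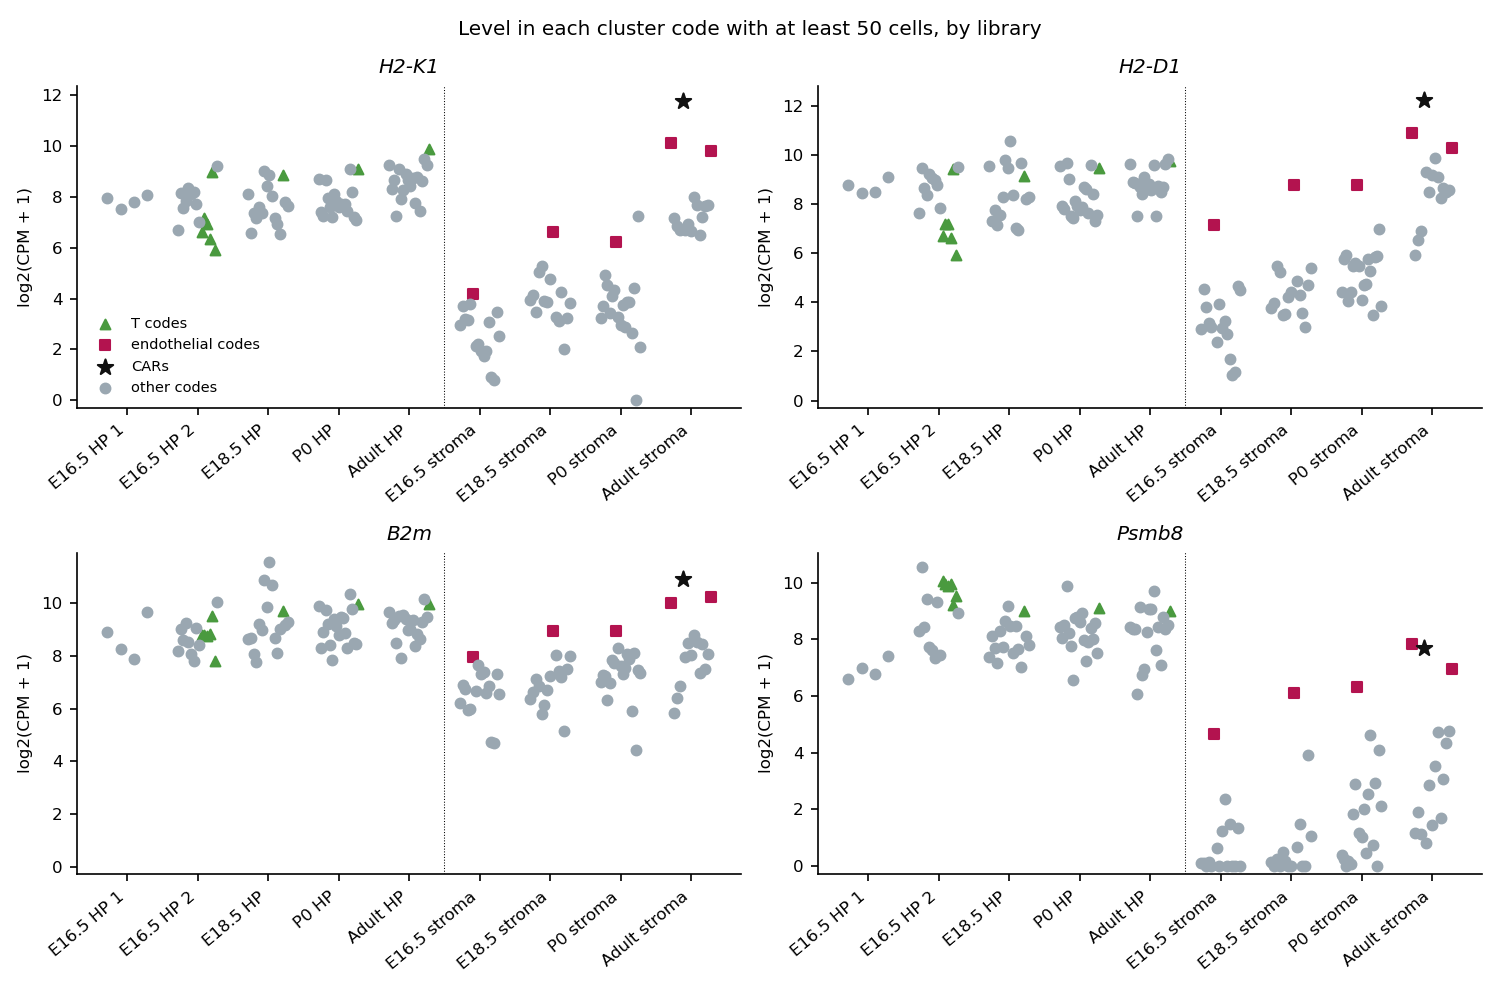
Level of H2-K1, H2-D1, B2m and Psmb8 as log2(CPM + 1) in each cluster code with at least 50 cells, by library, with stars for CARs, squares for endothelial codes, triangles for T cell codes and circles for all others. Endothelial codes top the perinatal stromal libraries for H2-D1, B2m and Psmb8, and CARs top adult stroma for H2-K1, H2-D1 and B2m.

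Among HPs the codes spread over a narrower range. H2-K1 ran from 58.8 CPM in E16.5 TCell6 to 946 CPM (862 to 1035) in the adult code T/NK, which also had the highest Nlrc5 of the series at 32.0 CPM (18.3 to 51.9), from 16 UMIs. In the T/NK cells the leukocyte and neutrophil marker lists had higher means than the T cell list, and no list of NK cell markers was used. B2m peaked in E18.5 Mono1iii, at 3048 CPM (2874 to 3229), with H2-D1 at 1501 CPM in the same 61 cells. The lowest H2-K1 and H2-D1 of adult HPs were in the erythroid code EryP2, at 150.4 and 179 CPM.

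Psmb8, Psmb9 and Tap2 did not follow the heavy chains in T cells. In the E16.5 codes TCell1 to TCell4 and TCell6 of the second library, H2-K1 was at 58.8 to 141 CPM and H2-D1 at 60.1 to 146 CPM, below the library's medians of 197 and 362 CPM over its codes. In the same codes Psmb8 was at 739 to 1067 CPM, above the median of 614 CPM, Psmb9 at 143 to 234 CPM, above that of 123 CPM, and Tap2 at 123 to 199 CPM, above that of 65.4 CPM. Tap1 lay on both sides of its median of 29.8 CPM, at 23.6 to 37.0 CPM. TCell5 was the exception, with H2-K1 at 497 CPM, H2-D1 at 684 CPM, Psmb8 at 597 CPM and Tap2 at 48.0 CPM. DC1, led by dendritic markers, had the highest Psmb8 and Psmb9 of the series, at 1482 CPM (1399 to 1568) and 649 CPM (595 to 707), with Tap1 at 194 CPM. The P0 dendritic code DC3 likewise topped its library for H2-D1, Tap1, Tap2, Psmb8 and Psmb9.

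Levels across codes were then set against each other, gene by gene. Over all 138 combinations, Spearman's rho was 0.963 between Psmb8 and Psmb9, 0.92 between Tap1 and Psmb9 and 0.899 between H2-K1 and H2-D1. Among the 73 HP combinations it was 0.827 for Psmb8 with Psmb9 and 0.826 for H2-K1 with H2-D1, but 0.242 for H2-K1 with Psmb8, 0.165 for H2-K1 with Tap2 and 0.0613 for H2-D1 with Tap2. Tap1 stood between, with a rho of 0.590 with H2-K1 and 0.575 with Tap2. Among the 65 stromal combinations H2-D1 and Tap2 had a rho of 0.725. Codes of a library share its depth, so these values are descriptions. Set against the mean log2 level of H2-K1, H2-D1 and B2m over all combinations, the 10 most alike of 6202 genes included H2-T23 (rho 0.908), Sp100 (0.872), Serinc3, Zc3hav1, Tap1 (0.846), Tapbp (0.844), Itsn2, Ikbkb and Lrp10 (0.822). Within HPs the rho of H2-T23 was 0.696 and that of Tapbp 0.741, and within stroma 0.847 and 0.865. Others of these genes were less alike within a compartment. Serinc3, Itsn2 and Ikbkb had a rho of 0.472, 0.514 and 0.507 within HPs, and Sp100 of 0.524 within stroma.

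Cell classes coded at all 4 stages allowed stages to be set side by side within a class, with 1 library per stage in stroma and no test. Adult and perinatal HPs shared no code of the same name, the nearest being Mast4 at P0 and Mast4i and Mast4ii in adults, and adult and perinatal stroma shared P1 alone. F1 to F7 and C1 to C8 were perinatal and F8 to F13 and C9 to C11 adult, and B cells were Bcell1 and BCell2 in perinatal HPs and Bcell3, Bcell4, Pre/Pro-B1 and Pre/Pro-B2 in adults. In every class below, another make-up and another level in the same cells cannot be told apart. A gene was counted when the adult sum was at least 2-fold above every other stage and held at least 50 UMIs. In endothelial codes H2-K1, H2-D1, B2m, Tap2 and Psmb8 were counted, at a background of 11.4% of genes. Tap1 and Psmb9 were counted too, but reached 50 UMIs through the adult sum alone (2, 15, 47 and 234 UMIs of Tap1 and 3, 11, 40 and 312 of Psmb9, by stage). H2-K1 was at 17.2 CPM (9.6 to 28.4), 97.8 CPM (78.9 to 120) and 74.1 CPM (63.7 to 85.7) in the perinatal stages by age and at 1020 CPM (990.4 to 1051) in adults, and H2-D1 at 141, 439, 437 and 1592 CPM. B2m was at 247, 493, 489.7 and 1114 CPM. The adult sum had 594 cells and the E16.5 sum 71, and the adult AECs and SECs were one ECs code at earlier stages.

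The F codes of stroma, mostly led by fibroblast markers, counted 5 of 7 genes (background 11.9%). H2-K1 was at 3.4 CPM (2.8 to 4.1), 9.28 CPM and 10.1 CPM in the perinatal stages and at 138 CPM (134 to 141) in adults, and H2-D1 at 7.26, 21.7, 37.9 and 492 CPM. B2m differed less there, at 141, 207, 247 and 279 CPM. Psmb8 was at 1.01, 1.09, 2.54 and 9.93 CPM.

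The C codes, led by chondrocyte markers, counted 4 of 5 genes (background 8.16%). H2-K1 was at 9.60, 18.9, 14.7 and 123 CPM and H2-D1 at 11.1, 16.4, 26.2 and 87.0 CPM, whereas B2m was at 83.8, 85.1, 119 and 83.2 CPM with no higher adult level. The P codes counted 5 of 6 genes (background 12.9%), with H2-K1 at 0.789, 4.67, 7.08 and 193 CPM and H2-D1 at 1.18, 12.5, 16.2 and 356 CPM. The code letter P covered codes led by pericyte markers (P2 and P4) and others that were not (P1 and P3), in unlike shares between stages. The adult heavy chain levels thus lay above those of every perinatal stage in each of the 4 stromal classes, and the ratio of adult to highest perinatal level ran from 6.49 in C to 27.2 in P codes for H2-K1 and from 3.32 in C to 21.9 in P codes for H2-D1.

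**Figure D4:**
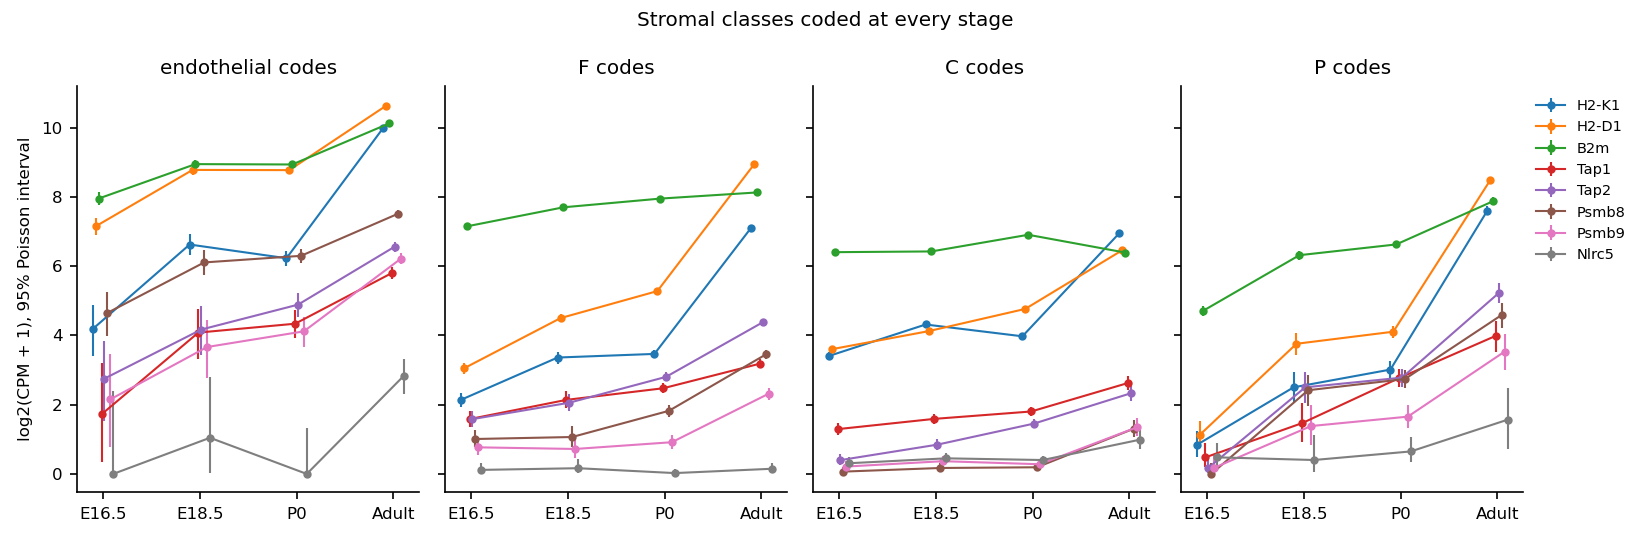
Level of the 8 genes as log2(CPM + 1) with Poisson 95% intervals at the 4 stages, in the stromal classes coded at every stage. H2-K1 and H2-D1 are higher in the adult than at P0 in all 4 panels, while B2m in C codes ends at 83.2 CPM, below its P0 level of 119 CPM.

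The same count was made in HPs. In HSPC codes, 1 of 7 genes was counted (background 1.25%), H2-K1, at 234 CPM (219 to 249), 192 CPM (184 to 201) and 238 CPM (232 to 243) in the perinatal stages by age and 536 CPM (517 to 556) in adults. Nlrc5 in HSPC codes was at 1.49, 3.19, 1.40 and 8.99 CPM, from 6 to 49 UMIs, too few to be counted. In the adult HSPC5 code the neutrophil list had a higher mean than the HSPC list, whereas HSPC2 at E18.5 and P0 was led by HSPC markers. These lists hold different genes, so their order does not name the cells.

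In B cell codes, H2-K1, H2-D1 and Psmb9 were counted (background 2.83%), and Nlrc5 was too, reaching the minimum through the adult sum alone. H2-K1 was at 96.7, 95.2, 159.6 and 443 CPM, H2-D1 at 187, 155, 244 and 502 CPM, Psmb9 at 92.9, 100.9, 109 and 231 CPM, and Nlrc5 at 0, 1.98, 1.06 and 9.05 CPM from 0, 7, 6 and 55 UMIs. Psmb8 differed less, at 278 to 404 CPM over the stages. With every cell weighted equally, 2 of the 8 were counted in B cell codes. Eosinophil and basophil codes counted H2-K1 (1.03% background), at 180.5, 190.5, 175 and 407 CPM, but not with cells weighted equally. The adult code in that class was Eos/Bas4, which no perinatal stage held. Neutrophil codes counted none of 7 (background 3.79%). T cell codes counted none either (0.464%), but their adult arm was the code T/NK, which T cell markers did not lead. Mast codes counted none either (0.271%), but 185 of 201 adult Mast4i and 78 of 120 adult Mast4ii cells had a barcode that another library held with at least 5 times the UMIs, so the adult mast level is not read further.

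A readout independent of the clusters came from the antibody counts of the same cells, whose panel of 29 antibodies had none against class I. Cells were split within each library by their normalized level of an antibody and both sums compared, with the library as a block. Against the Sca-1 antibody, which is used to find stem cell rich HPs and also marks some stromal and endothelial cells, positive cells had higher B2m, Tap1, Tap2, Psmb8 and Psmb9, in 9 of 9 libraries each. These were 5 of 8 genes, at a background of 6.39% of 16906 genes called higher and 13% lower. In the second E16.5 HP library the split rested on few Sca-1 antibody counts, 5623 over 4752 cells with a median of 1 per cell. The study also found many E16.5 cells of a long-term stem cell phenotype in T cell clusters, so positive HPs of that stage need not be stem cell rich. Without TMM scaling the same 5 genes were called, but the background turned to 13.0% higher and 3.12% lower. Psmb9 was 1.59-fold higher (log2 0.67 ± 0.09 SE, edgeR adjusted p = 0.00148), with ratios of 1.40 to 2.64 over the libraries. Psmb8 was 1.77-fold higher (log2 0.82 ± 0.23 SE, edgeR adjusted p = 0.0288), with ratios of 1.15 to 1.54 in HPs and 2.50 to 6.00 in stroma. The endothelial gene Pecam1 moved with the same split in stroma, at ratios of 1.98 to 4.85, and endothelial codes held 1.64% to 24.7% of the Sca-1 positive cells and 33.3% to 49.6% of the Psmb8 UMIs of a stromal library. Their part in the stromal ratios was not tested.

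Tap1 was 1.38-fold (edgeR adjusted p = 0.00104), B2m 1.30-fold (0.00418) and Tap2 1.30-fold higher (0.0271) in Sca-1 positive cells. In the P0 HP library, B2m was at 752 CPM in positive and 388 CPM in negative cells. The heavy chains did not pass the threshold, H2-K1 at a log2 difference of 0.13 ± 0.11 (SE, edgeR adjusted p = 0.438) and H2-D1 at 0.17 ± 0.11 (adjusted p = 0.285). They were higher in positive cells of 7 and 8 of the 9 libraries. Both were lower in those of the second E16.5 HP library (ratios of 0.782 and 0.674), and H2-K1 also in those of E16.5 stroma (0.840). Without that HP library H2-D1 was called (log2 0.28 ± 0.06 SE, edgeR adjusted p = 0.0149). Ly6a, which encodes Sca-1, was 4.39- to 74.0-fold higher in positive cells, so the antibody and its transcript went together in all 9 libraries. The call for Tap2 was lost without the second E16.5 HP, the adult HP or the E18.5 stromal library, and that for Psmb8 without the adult HP, the P0 stromal or the adult stromal library, at adjusted p of up to 0.0802 and 0.0622. With a lower antibody level for a positive cell the calls for B2m (adjusted p = 0.0530) and Tap2 (0.0981) were lost in edgeR, and with a higher one that for Tap2. Among the other pathway genes, H2-T23, H2-M3, Mr1, Psme1, Irf1, Irf2, Irf9, Stat2 and the interferon receptor chain Ifnar1 were among the higher genes, and the chaperones Calr and Pdia3, the constitutive proteasome subunits Psmb5 and Psmb6, and Rfxap were lower.

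In the 4 stromal libraries, cells positive for CD31, the endothelial adhesion molecule encoded by Pecam1, had higher H2-D1, Tap1, Tap2, Psmb8 and Psmb9, or 5 of 8 genes at a background of 3.53% of 16655 genes called higher. Psmb8 was at 2.69, 11.1, 10.7 and 65.1 CPM in positive and 0.304, 0.411, 1.28 and 13.1 CPM in negative cells, from the earliest stage to the latest, a fitted 8.06-fold difference (log2 3.01 ± 0.37 SE, edgeR adjusted p = 0.0099). H2-D1 was at 18.6, 70.5, 72.9 and 919 CPM in positive and 8.98, 17.5, 29.4 and 466 CPM in negative cells (log2 1.18 ± 0.16 SE, edgeR adjusted p = 0.0161). Positive and negative cells each had their highest H2-D1 level in the adult.

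H2-K1 was also higher in CD31 positive cells of 4 of 4 libraries, 1.10- to 1.90-fold, without passing the threshold (log2 0.39 ± 0.12 SE, edgeR adjusted p = 0.0929). Of the CD31 positive cells, 9.54% to 47.2% were in endothelial codes. The calls for H2-D1, Tap1 and Psmb8 were lost without the P0 stromal library and those for Tap1 and Tap2 without the E18.5 stromal library, at adjusted p of up to 0.132, and with a lower antibody level for a positive cell no gene of the 8 passed. CD140a, encoded by Pdgfra and carried by mesenchymal progenitors, gave 3 calls among the 8 genes, near the share called among all genes. B2m was 1.37-fold higher in CD140a positive cells (log2 0.46 ± 0.09 SE, edgeR adjusted p = 0.0202), while H2-K1 was lower in 4 of 4 libraries (log2 -0.81 ± 0.15 SE, adjusted p = 0.0166), at 3.43, 9.87, 10.9 and 232 CPM in positive and 7.67, 17.8, 14.3 and 298 CPM in negative cells. Pecam1 was likewise lower in positive cells of 4 of 4 libraries, at ratios of 0.193 to 0.744. Endothelial codes held 0.177% to 7.19% of the CD140a positive cells, and their part was not tested. Nlrc5 was lower too (log2 -1.43 ± 0.39 SE, edgeR adjusted p = 0.0414), from 1 to 12 UMIs a library in positive cells. The background there was 12.9% of 16802 genes called higher and 16.6% lower (20.9% and 9.92% without TMM, when Nlrc5 was no longer called), and each of the 3 calls was lost when any 1 of the 3 perinatal stromal libraries was left out, at adjusted p of up to 0.0867 for H2-K1, 0.0987 for B2m and 0.155 for Nlrc5, the last also without the adult one.

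**Figure D5:**
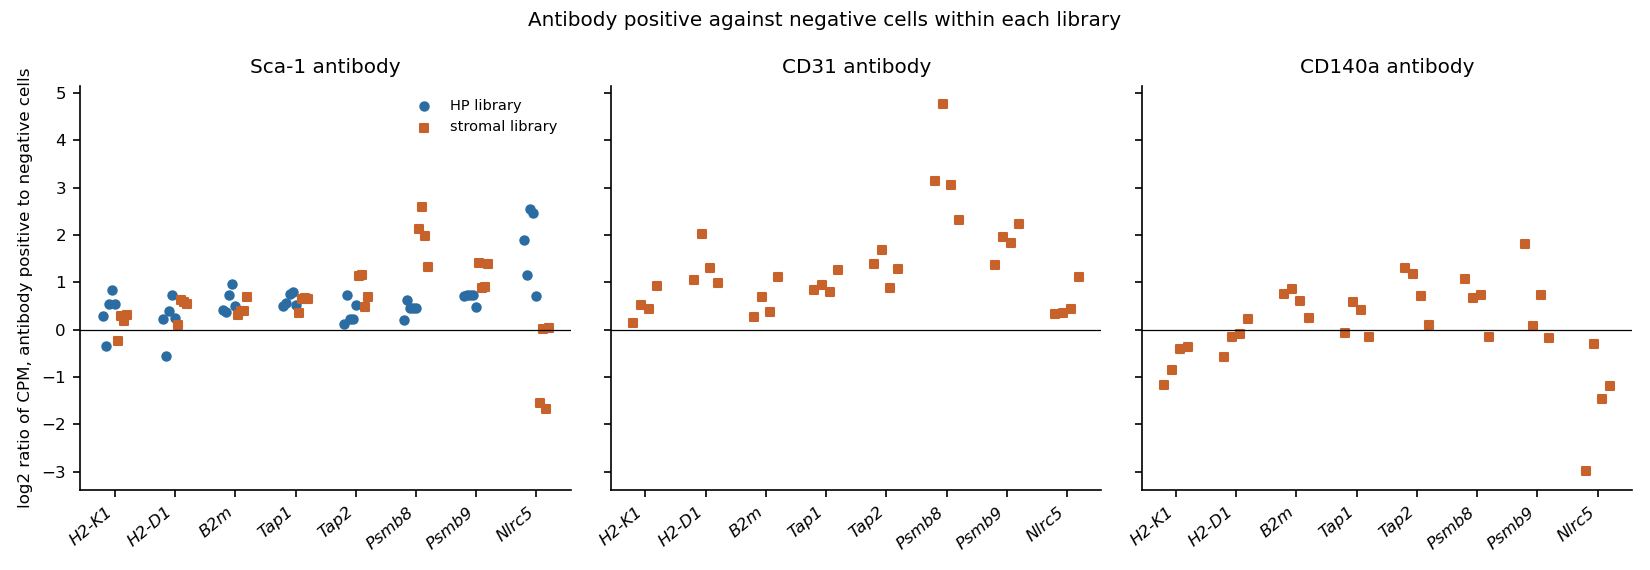
Log2 ratio of CPM between antibody positive and negative cells for the 8 genes in each library, with circles for HP and squares for stromal libraries, for Sca-1 in all 9 libraries and for CD31 and CD140a in the 4 stromal ones. The highest ratio, 27.1-fold, is that of Psmb8 in CD31 positive cells of E18.5 stroma, and H2-K1 lies below 0 in CD140a positive cells of all 4 libraries.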

How the data were processed

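The authors deposited raw counts of UMIs per gene and cell, raw antibody counts for 29 antibodies and a table giving each cell's library, compartment and cluster code. Per the submitters' notes, reads were processed with Cell Ranger 3.1.0 on mm10 and with R 4.0 and Seurat 3.1.5. The study's methods describe 3' tags from a 10X kit and the removal of cells with few UMIs, high mitochondrial share or the most genes and UMIs, the last as putative doublets, so no doublet caller was run here. A tag of the 3' end can be shared by near-identical class I genes, whose counts are uncertain to that extent. The 8 genes and the pathway and marker lists were chosen with earlier results of these data known. The 8 genes were named by their list and described in each library, beside lists of 6 peptide loading, 6 proteasome, 11 other heavy chain and 17 regulator genes (10 heavy chain genes were in the matrix), and beside the 10 genes most alike in pattern among those at 20 CPM or more on average. Markers of other cell types served as checks. Some genes of these lists are not reported here.

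Counts were summed per library and tested with edgeR 4.0.16 in R 4.3.3 (TMM, default filter on low counts, quasi-likelihood F test, Benjamini-Hochberg adjustment over all tested genes, threshold 0.05). The fit had compartment and stage as factors, with 4 residual degrees of freedom, and a second fit added a separate adult change per compartment, with 3. P-values measure only the spread between these libraries. In both fits it is the spread of stage effects between compartments and of the E16.5 HP pair, since all other groups have 1 library. A different adult change in each compartment adds to this spread in the first fit. SEs are the log2 change divided by the root of F. For each antibody a centered log-ratio (CLR) was taken across the cells of a library, cells above 1 were positive, and both sums of a library entered with the library as a block. The CD31 and CD140a comparisons, the within-compartment adult changes and the removal of endothelial, CARs or T cell codes and of cells by barcode were added after the data were seen. Clusters had been made from the same counts, so codes and classes were not tested. On simulated data with 200 changed genes, the test found 73% of 4-fold changes between compartments, 50% between adult and perinatal libraries, 33% between P0 and E16.5 and 30% within stroma, and 96% or more of 16-fold changes in each. DESeq2 1.42.0 and the changes named in the closing section were alternatives. Other steps used Python 3.11.15, numpy 2.4.6, pandas 2.3.3, scipy 1.17.1 and matplotlib 3.10.9. RefSeq positions and promoter windows are those of GRCm38.p6, the assembly behind mm10.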

Additional observations from a re-analysis of the deposited data

How the results depend on the processing

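With 1 library left out, the counts of called genes were 7566 to 10920 genes and 6 to 8 of the 8 between stroma and HP, 0 to 261 genes and 0 to 2 of the 8 for the shared adult change, 0 to 27 genes and 0 of the 8 between P0 and E16.5, 0 and 0 for the difference between compartments, 0 to 88 and 0 for the adult change in HP, 0 to 429 and 0 to 4 for that in stroma, 2270 to 3541 and 3 to 5 for Sca-1, 159 to 1473 and 2 to 6 for CD31, and 789 to 7303 and 0 to 5 for CD140a. With DESeq2, 914 genes were called for the shared adult change (5 of the 8), 68 between P0 and E16.5, 1649 for the difference between compartments (2 of the 8), 945 in HP (1), 2153 in stroma (8) and 2087 for CD31, against 35, 0, 0, 7, 264 and 756 with edgeR. The shared adult change had 22 genes without undefined and stromal codes and 15 without endothelial and CARs codes. In HP the adult change had 17 genes without undefined and stromal codes, 102 with equal weight per code and 44 without T cell codes. In stroma it had 21 genes with equal weight per code (0 of the 8) and 648 without T cell codes (6), and 4 of the 8 were called without TMM and without undefined and stromal codes. A CLR level of 0.75 gave 1301 genes for Sca-1 (3 of the 8, against 1081 higher and 2205 lower genes and 5 of the 8), 64 for CD31 (0) and, for CD140a, 1 of the 8 against 3. A level of 1.5 gave 3731 genes for CD31, and no filter on low counts 1399. With cells weighted equally, 2 genes were counted in B cell codes and 0 in eosinophil and basophil codes.

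Signs turned for values that were not called: Tap2 (-0.0700 to 3.25) and Psmb8 (-0.0603 to 3.95) in the shared adult change when 1 library was left out, the lower value being without adult stroma, Nlrc5 in the difference between compartments with equal weight per code (0.43), Nlrc5 for CD31 at a level of 0.75 (-0.33), and Tap1 for CD140a (-0.0560 to 0.20) without E18.5 or P0 (-0.0321) stroma. In the adult change in HPs, leaving out 1 library gave -0.109 to 0.57 for H2-D1, -0.517 to 0.61 for Tap2 and -0.485 to 0.65 for Psmb8, and Tap2 and Psmb8 were at -0.124 and -0.113 without TMM and at -0.0542 and -0.0128 with equal weight per code. Between P0 and E16.5, H2-K1, H2-D1, Tap2, Psmb8 and Psmb9 also lay on both sides of 0 over the alternatives. The cause was not tested. Without TMM the median of all genes moved to 0.37 in the difference between compartments. No paired analysis was possible because replicate numbers, the only ones that could pair samples across groups, are given for E16.5 HPs alone, so that no replicate block could be fitted beside the stage term and the library block of the antibody fits. Nlrc5 was scarce in every library, and the part of depth in its results was not tested.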

Other observations

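Among the other class I heavy chains, H2-Q4 was at 1.87 to 4.98 CPM in perinatal HPs and 17.4 CPM in adult HPs, and at 3.13 to 6.81 CPM and 25.4 CPM in stroma (log2 2.41 ± 0.23 SE, edgeR adjusted p = 0.0221). H2-Q6 was at 0.0716 to 0.365 CPM and 12.1 CPM in HPs and at 0.0855 to 0.400 CPM and 8.07 CPM in stroma (log2 5.33 ± 0.53 SE, edgeR adjusted p = 0.0278). Its perinatal levels were near the floor of counting, so the size of this change is uncertain. Both were higher in adults in 2 of 2 compartments. Their calls came from the shared adult change and were lost without the E18.5 stromal library.

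Ly6a, the gene of Sca-1, was at 5.16 to 38.3 CPM in perinatal and 621 CPM in adult stroma (log2 5.08 ± 0.62 SE, edgeR adjusted p = 0.0294), while the HP libraries lay between 6.01 and 23.2 CPM. Irf1, a transcription factor that can induce class I genes, was at 35.9 to 40.4 CPM in perinatal and 96.1 CPM in adult stroma, an adult change that was not called (log2 1.22 ± 0.44 SE, edgeR adjusted p = 0.212), and at 11.5 to 24.8 CPM in HPs.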
